A study of Mus musculus with 5 samples.

Results

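The purine nucleotide cycle and AMPK genes are 10 genes of the count table, taken by symbol, out of 55487 genes in all. They are *Adss*, *Adssl1* (the symbol used in the table for *Adss1*), *Adsl*, *Ampd2*, *Ampd3*, *Impdh2*, *Prkaa1*, *Prkab1*, *Prkag1* and *Ppargc1a*. They were read in RNAseq libraries of macrophages from the aortas of male mice that had Chow for the first 8 weeks of life and a Western diet for the next 10 weeks. There were 2 libraries labelled WT, from *Zeb1* WT/*Apoe* KO mice, and 3 labelled KO, from *Zeb1* ∆M/*Apoe* KO mice. Both genotypes lack *Apoe* and carry floxed *Zeb1* alleles, so that the WT mice are *Zeb1* fl/fl, and the ∆M mice have Cre under the *Lyz2* (*LysM*) promoter in addition. That promoter is active in other myeloid cells besides macrophages. The genotypes are called WT and ∆M below. The study's methods state that the macrophages of 3 mice were mixed, and the libraries were made with a kit for very low input, in which little cDNA is amplified. The study describes its replicates in general as independent mice or macrophage samples, but its methods do not say how the mixed mice were divided among these libraries, so the p-values below measure only the spread between these libraries.

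The purine nucleotide cycle interconverts AMP and IMP. AMP deaminase turns AMP into IMP, adenylosuccinate synthetase joins IMP to aspartate, and adenylosuccinate lyase splits the product into AMP and fumarate, so that the cycle sets the AMP pool and links it to amino acid and energy metabolism. AMPK is a kinase made of a catalytic α, a scaffolding β and an AMP-binding γ subunit. It is switched on when AMP rises, restrains fatty acid and cholesterol synthesis, and acts with the coactivator PGC-1α, the product of *Ppargc1a*, on mitochondrial genes. In macrophages loaded with lipid, AMPK signaling is known for favouring cholesterol efflux. The study used the RNAseq to ask which genes depend on *Zeb1* in plaque macrophages, and measured *Adss1*, *Prkaa1* and *Ppargc1a* by qRT-PCR in peritoneal macrophages. Those qRT-PCR samples were not analysed here.

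Of the 10 genes, *Adss* was the only one counted in both WT libraries and in no ∆M library. Its isozyme gene *Adssl1* was counted in libraries of both genotypes, with no difference beyond the spread between libraries. *Impdh2* and *Ampd3* each had more than 3 counts in a single library. *Adsl*, *Ampd2* and *Prkaa1* had at most 18 counts, and *Prkab1*, *Prkag1* and *Ppargc1a* at most 3, in every library of either genotype. Of the 10 genes, only *Adss* and *Adssl1* had enough counts to enter the test across all genes. Neither passed its threshold (0 genes with an adjusted p under 0.05 by Benjamini-Hochberg, from the quasi-likelihood test of edgeR). This was also the share over all genes tested, 0% of 7905 genes, among which 86 had an unadjusted p under 0.05.

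**Figure D1:**
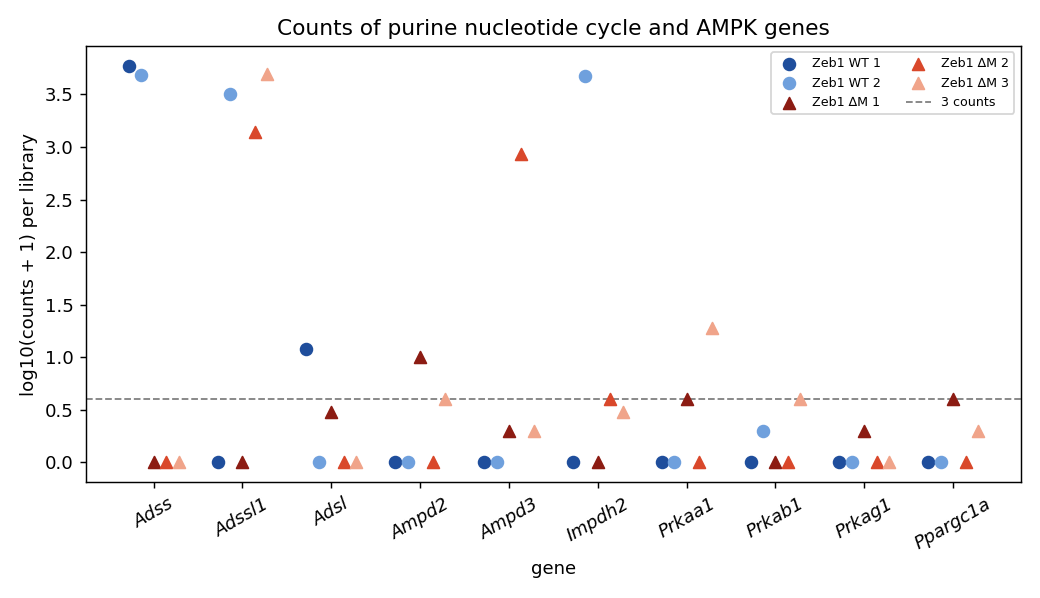
Counts of the 10 genes in each library, drawn as log10(counts + 1), with circles for the 2 WT libraries and triangles for the 3 ∆M libraries. The dashed line marks 3 counts. *Adss* lies at 5923 and 4866 counts in the former and at 0 in the latter, and the 3 AMPK subunit genes lie at 18 counts or lower in all libraries.

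Total counts ranged from 20118545 to 50649912 per library. A gene was called detected with more than 3 counts, a floor of 0.0592 to 0.149 CPM (counts scaled to a common library total). Such floors cover counting error only, since PCR copies are not independent molecules. The libraries differed in how their counts were spread over genes. ∆M replicate 1 had at least 1 count for 20919 genes, against 7395 to 10689 in the other 4 libraries, and 15387 of them had 1 to 20 counts. The share of detected genes with 1 to 20 counts was 73.6% there and 72.5% in WT replicate 1, against 40.8 to 55.6% in the others. Likewise, 1710 and 1872 genes had over 50 counts in these replicates, against 3350 to 4652 in the others. In ∆M replicate 1 the B cell gene *Ms4a1* had 35 counts and the endothelial gene *Vwf* had 37, whereas *Ms4a1* had 0 in the other 4. The targeted gene *Zeb1* had 22 counts in it and 0 in all other libraries, and so did not check the genotype labels.

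The macrophage label was checked on 11 marker genes. Their summed level was 32853 to 33150 CPM in the WT and 23058 to 35797 CPM in the ∆M libraries, and *Ptprc* (CD45) and *Adgre1* (F4/80) were detected in all 5. In ∆M replicate 1, most of this sum was *C1qb* (398502 counts) and *Lyz2* (161607 counts). More than 50 counts were reached by 7 and 10 of the 11 markers in the WT libraries and by 5, 9 and 9 in the ∆M libraries. *C1qa* had 0 and 5 counts in replicate 1 of the WT and the ∆M genotype, *Csf1r* had 25 in ∆M replicate 1, *Fcgr1* had 0 and 3084 counts against 2, 178 and 0, and *Mertk* had 22 in ∆M replicate 1 and 0 in the other 4 libraries. *Cd68* had 0 and 10 counts in replicate 1 of the WT and the ∆M genotype and 36172 to 46735 in the other 3, and *Itgam* (CD11b) had 0 in ∆M replicate 1. *Lyz2*, whose promoter drives Cre, had 161607 to 869804 counts, and *Apoe*, deleted in both genotypes, had 0 to 86. T cell markers (6 genes) summed to 10.2 and 2698 CPM in the WT libraries and to 1.15, 405 and 806 CPM in the ∆M libraries. Neutrophil markers (6 genes) summed to 3592 and 880 CPM and to 1361, 1505 and 138 CPM. Smooth muscle markers (5 genes) were at 0 apart from 0.451 CPM in ∆M replicate 1. Endothelial markers (4 genes) summed to 72.3 and 72.1 CPM in the WT libraries and to 2.38, 0.168 and 51.9 CPM in the ∆M libraries. Fibroblast markers (4 genes) reached 531 CPM in ∆M replicate 2, where *Dcn* had 19005 counts, and at most 2.23 CPM in any other library. Skeletal and cardiac muscle markers (5 genes) reached 56.5 CPM in WT replicate 1, where *Ckm* had 1122 counts, and at most 1.52 CPM in any other. The part of these cells in the values below was not tested, and in such bulk samples fewer cells of a type and less RNA per cell cannot be told apart.

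**Figure D2:**
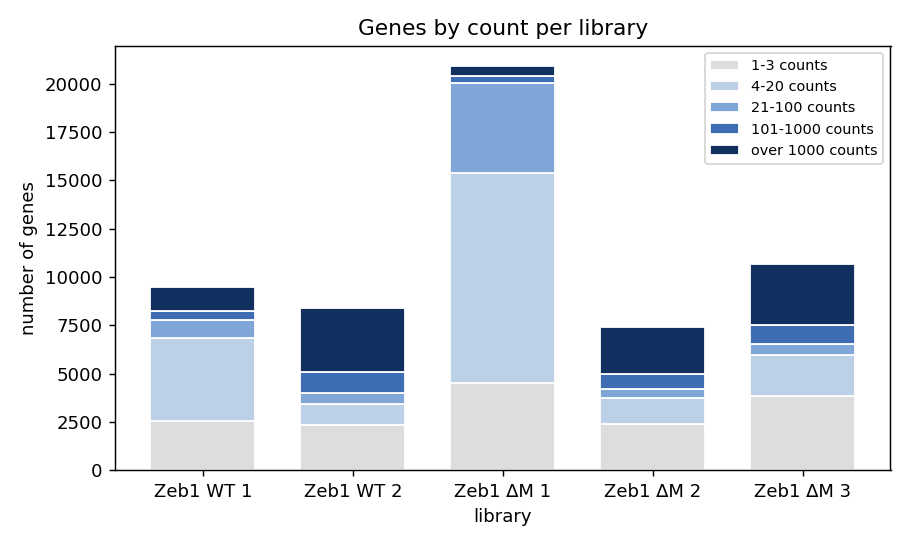
Number of genes in each library by their count (stacked bars, 5 ranges of counts). ∆M replicate 1 has the tallest bar, made mostly of 10891 genes with 4 to 20 counts, and has 502 genes over 1000 counts against 1201 to 3320 in the other libraries.

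*Adss* (ENSMUSG00000015961.8) codes for the adenylosuccinate synthetase of most tissues, which commits IMP to AMP. It lies on chromosome 1 of GRCm38 from 177762962 to 177796511, on the minus strand. It had 5923 and 4866 counts in the WT libraries and 0, 0 and 0 in the ∆M libraries, so that the genotypes did not overlap. Its level was 214 and 141 CPM after TMM normalization (scaling by edgeR's trimmed mean of M-values), or 178 ± 51.8 CPM (SD, n = 2). This mean was 1414-fold the mean of the floors of 3 counts in the ∆M libraries. Those floors ran from 0.0597 to 0.248 CPM after TMM, so the ratio is not a lower limit for each library. Within its library, *Adss* stood at the 92.6th percentile of detected genes in WT replicate 1, where 704 genes had more counts, and at the 79.6th percentile in WT replicate 2, where 1718 did. These percentiles are not alike, since 72.5% of detected genes had 1 to 20 counts in the former library and 40.8% in the latter. *Adss* is among the genes that the study drew from these libraries for their difference, so this separation is given as a description and is not independent evidence.

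Over all genes tested, 359 of 7905 (4.54%) were without overlap and lower in the ∆M libraries. With the stricter pattern of *Adss*, at least 1000 counts in both WT libraries and 0 in all 3 ∆M libraries, there were 6 genes (0.0759%). The opposite pattern, at least 1000 counts in all 3 ∆M libraries and 0 in both WT libraries, was found in 2 genes. The adjusted p of *Adss* was 1 with edgeR's quasi-likelihood test (unadjusted p = 0.0341) and 0.00114 with DESeq2, which called 342 of 6519 genes (5.25%) as lower in the ∆M libraries. The genes tested whose log2 CPM lay closest to that of *Adss* over the 5 libraries were *Dhrs1*, *Lin37* and *Ddx39b*, with mean absolute differences of 0.27, 0.31 and 0.33. *Dhrs1* had 2470 and 5227 counts in the WT libraries, and all 3 genes had 0 in the ∆M libraries.

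*Adssl1* (ENSMUSG00000011148.14) codes for the second adenylosuccinate synthetase, the isozyme best known from muscle. It lies on chromosome 12 from 112620045 to 112641360, on the plus strand. It had 0 and 3184 counts in the WT libraries and 0, 1397 and 4985 counts in the ∆M libraries. It was thus absent from replicate 1 of both genotypes at this depth and high in the other 3 libraries, and the genotypes overlapped. Its means of 46.2 ± 65.3 CPM (SD, n = 2) and 44.0 ± 50.6 CPM (SD, n = 3) differed by less than the spread between libraries. On the log2 scale edgeR put ∆M against WT at -0.07 (SE 4.92, adjusted p = 1), and without WT replicate 2 it was 13.59.

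Both synthetase genes were counted together in a single library, WT replicate 2, where *Adss* held 60.4% of their joint 8050 counts (95% exact binomial interval 59.4 to 61.5%, counting error only). *Adss* held 100% of the 5923 joint counts in WT replicate 1. It held 0 of 1397 and 0 of 4985 in ∆M replicates 2 and 3, with upper 95% limits of 0.264% and 0.0740%, and neither gene was counted in ∆M replicate 1. Per kilobase of exon in WT replicate 2, the levels were 31.2 CPM per kb for *Adss* and 44.2 CPM per kb for *Adssl1*. No stretch of 75 bases, the read length, was shared by their annotated transcripts (0 of 4454 in *Adss* and 0 of 2088 in *Adssl1*), so that reads of 1 isozyme could not be counted on the other through an identical stretch.

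The 250 bases before the start of a gene are shown for *Adss*, which was counted in both WT libraries and in no ∆M library. Those of its isozyme *Adssl1* and of *Ppargc1a*, which holds the motif searched more than once, are shown too. ZEB1 is known to bind E-box sequences of the form CACCTG. Capitals mark CACCTG on either strand (CAGGTG on the other), the remaining bases are in lower case, and each sequence runs 5′ to 3′ on the strand of its gene. They are RefSeq sequences of GRCm38.p6 at chr1:177796510-177796759 (minus strand), chr12:112619797-112620046 (plus strand) and chr5:51567726-51567975 (minus strand).
Adss: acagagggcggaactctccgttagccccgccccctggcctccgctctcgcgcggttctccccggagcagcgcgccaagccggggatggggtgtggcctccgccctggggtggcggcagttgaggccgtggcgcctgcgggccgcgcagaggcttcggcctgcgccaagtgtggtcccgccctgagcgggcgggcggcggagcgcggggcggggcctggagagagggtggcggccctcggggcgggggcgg
Adssl1: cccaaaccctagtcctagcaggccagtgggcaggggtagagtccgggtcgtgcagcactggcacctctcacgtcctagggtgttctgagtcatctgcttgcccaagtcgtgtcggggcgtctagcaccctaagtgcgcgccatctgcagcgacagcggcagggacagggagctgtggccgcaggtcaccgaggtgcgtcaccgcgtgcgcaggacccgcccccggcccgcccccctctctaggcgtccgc
Ppargc1a: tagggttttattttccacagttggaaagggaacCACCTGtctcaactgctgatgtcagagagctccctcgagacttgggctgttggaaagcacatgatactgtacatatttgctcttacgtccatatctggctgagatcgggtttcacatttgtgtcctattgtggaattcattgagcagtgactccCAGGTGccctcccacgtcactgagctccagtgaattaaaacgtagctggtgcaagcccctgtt

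All 10 genes matched RefSeq windows, 13 in total. CACCTG occurred in 2 of these 13, the window of *Ppargc1a*, 217 and 63 bases before the start, and 1 of the 3 windows of *Ampd3*, 122 bases before the start. Over all 32851 windows of 250 bases, 17.2% held it at least once and 2.06% more than once. The window of *Adss* was 78.8% G and C and that of *Adssl1* 68.4%. A match of letters is a description of the sequence, and its absence from a window says nothing of ZEB1 itself.

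*Adsl*, on chromosome 15 from 80948490 to 80970946, codes for adenylosuccinate lyase, the next enzyme of the cycle. It had 11 and 0 counts in the WT libraries and 2, 0 and 0 in the ∆M libraries. It was detected in WT replicate 1 alone, at 0.398 CPM, while *Adss* had 214 CPM in the same library.

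*Ampd2* and *Ampd3* code for AMP deaminases, which close the cycle by turning AMP into IMP. *Ampd2*, on chromosome 3 from 108074062 to 108086651, was read with 0 and 0 counts in the WT libraries and 9, 0 and 3 counts in the ∆M libraries. *Ampd3*, on chromosome 7 from 110768206 to 110812405, was read with 0 and 0 against 1, 864 and 1 counts. Its 864 counts in ∆M replicate 2 were 20.2 CPM, and the other two ∆M libraries lay under the floor, so that *Ampd3* was at the floor in 4 of 5 libraries. The genotypes of *Ampd3* did not overlap, but only through single counts. The third deaminase gene, *Ampd1*, known from skeletal muscle, had 1875 counts in WT replicate 2 and 0 in the other 4 libraries. No deaminase gene was therefore detected in WT replicate 1, although *Adss* was high there. *Ampd2* shares 434 exon bases with *Gm12500*, and *Ampd3* shares 196 with *B430319F04Rik* and 195 with *Rnf141*, all on the opposite strand. *B430319F04Rik* had 9 counts in ∆M replicate 1 and 0 in the other 4 libraries. *Gm12500* had 6 and 1 counts in the WT libraries and *Rnf141* 18, 0 and 7 in the ∆M libraries. RSEM was run with default options, which do not use strand, so that reads of a gene and its antisense partner cannot be told apart.

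*Impdh2*, on chromosome 9 from 108560286 to 108565584, codes for the IMP dehydrogenase that sends IMP towards GMP, in competition with adenylosuccinate synthetase. It had 0 and 4699 counts in the WT libraries and 0, 3 and 2 in the ∆M libraries. The genotypes overlapped, since WT replicate 1 had none. Its level in WT replicate 2 was 136 CPM, or 44.3 CPM per kb, close to that of *Adssl1* in that library, which also had the highest T cell marker level. By DESeq2, *Impdh2* differed by -10.47 on the log2 scale (SE 3.76, adjusted p = 0.0454). It did not pass the count filter of edgeR. This call rested on WT replicate 2, without which no library had more than 3 counts. *Impdh2* shares 34.9% of its 75-base stretches with the pseudogene *Impdh2-ps*, which had 6 and 121 counts in the WT libraries and 18, 0 and 0 in the ∆M libraries, so that the counts of both are uncertain. It also shares 48 exon bases with *Ndufaf3* on the opposite strand, which had 0 and 3353 counts in the WT libraries and 10, 0 and 5166 in the ∆M libraries. The other IMP dehydrogenase gene, *Impdh1*, had 5 counts in ∆M replicate 1 and 0 in the other 4 libraries.

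*Prkaa1*, on chromosome 15 from 5143861 to 5181899, codes for the catalytic AMPK α1 subunit. It had 0 and 0 counts in the WT libraries and 3, 0 and 18 in the ∆M libraries. Its only detected value was 0.358 CPM in ∆M replicate 3, where 4789 genes had more counts. Its counts of 0 in the WT libraries allow a level of up to 0.109 and 0.0871 CPM (TMM), and a difference between genotypes was not detectable. The genes tested with the log2 CPM closest to that of *Prkaa1* were *Gm12430*, *Xirp2* and *Agfg2* (mean absolute differences of 0.29, 0.32 and 0.33), each with 9 or 10 counts in ∆M replicate 1, 15 to 20 in ∆M replicate 3 and 0 in the other 3 libraries.

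*Prkab1*, on chromosome 5 from 116013586 to 116024508, codes for the β1 subunit that holds the complex together. It had 0 and 1 counts in the WT libraries and 0, 0 and 3 in the ∆M libraries. *Prkag1*, on chromosome 15 from 98812797 to 98831521, codes for the AMP-sensing γ1 subunit and had 1 count in ∆M replicate 1 and 0 in the other 4 libraries. It shares 950 exon bases with *B130046B21Rik* on the opposite strand, which had 13 and 0 counts in the WT libraries and 5, 0 and 1 in the ∆M libraries. Neither subunit gene exceeded the floor in any library.

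The remaining AMPK subunit genes had no count over the 18 of *Prkaa1*. In ∆M replicate 1 they were nevertheless higher than the 3 members, which held 0.164 of the 1.93 CPM of total counts of all 7 subunit genes. *Prkaa2* had 14, *Prkab2* 12 and *Prkag3* 12 counts in ∆M replicate 1, with at most 2 in any other library, and *Prkag2* had 5 counts in WT replicate 1 and 5 in ∆M replicate 1. Over the 7 subunit genes and 5 libraries, 22 of 35 values were 0 and 6 exceeded 3 counts, 4 of them in ∆M replicate 1, the library with 1 to 20 counts for 15387 genes. Their summed level was 0.249 and 0.0867 CPM of total counts in the WT libraries and 1.93, 0 and 0.454 CPM in the ∆M libraries. For comparison, the 6 purine genes among the members summed to 295 and 369 CPM and to 0.492, 63.3 and 98.5 CPM.

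*Ppargc1a*, on chromosome 5 from 51454250 to 51567726, was read with 0 and 0 counts in the WT libraries and 3, 0 and 1 in the ∆M libraries, at or under the floor throughout. Its relatives *Ppargc1b* and *Pprc1* had at most 2 counts in any library and 35 counts in ∆M replicate 1 alone, respectively. For *Ppargc1a*, as for *Prkab1* and *Prkag1*, the libraries do not show whether the genotypes differ.

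A two-sided exact permutation test of log2 CPM was run for the 9 genes other than *Adss*, and gave unadjusted p from 0.4 (*Ampd2*, *Impdh2* and *Prkaa1*) to 1 (*Prkab1* and *Prkag1*). With 2 libraries against 3, the smallest p it can give is 0.1. Only *Adss* and *Adssl1* passed edgeR's filter on low counts, and the other 8 genes did not. The number of members detected was 2 and 3 in the WT libraries and 1, 2 and 2 in the ∆M libraries, that is 10 to 30% of the 10 genes. Among all 21936 protein coding genes, 24.2, 22.8, 51.4, 18.5 and 25.2% were detected in these libraries. The members lay below this share in WT replicate 1 and ∆M replicates 1 and 3 and above it in WT replicate 2 and ∆M replicate 2. No member was detected in more than 3 libraries.

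**Figure D3:**
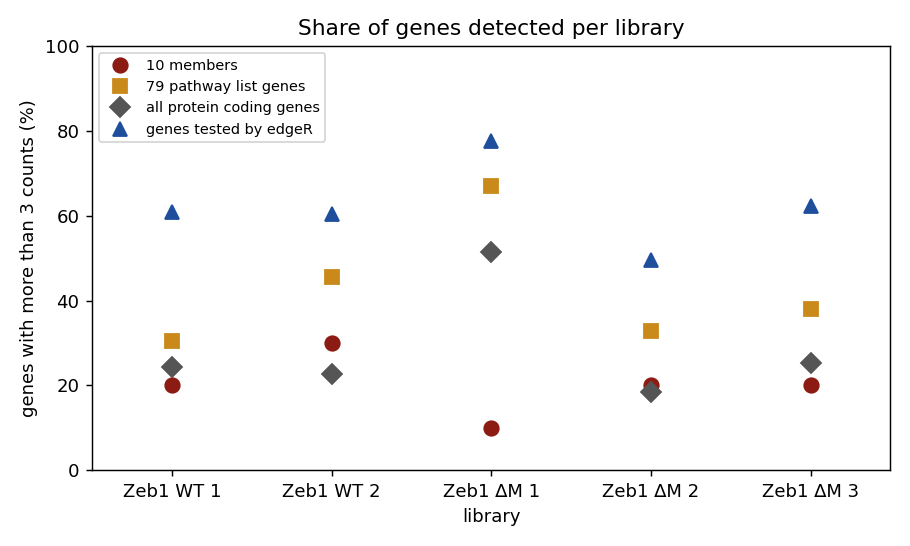
Percent of genes with more than 3 counts in each library, for the 10 members, 79 other genes of the pathway, all protein coding genes and the 7905 genes tested. The members lie between 10% and 30% in all libraries, and the other 3 groups of genes are highest in ∆M replicate 1, at 67.1%, 51.4% and 77.6%.

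Around these genes, 79 further genes were read in 7 lists. Of these, 43 passed the filter, none with an adjusted p under 0.05 by edgeR's quasi-likelihood test (0 genes, with 2 at an unadjusted p under 0.05, among them *Asl*). Their median log2 fold change was 0.67, with 29 positive and 14 negative, beside 0.78 over all genes tested, of which 4811 were positive and 3094 negative. The medians stayed at these values with genes at the floor in 1 genotype set at their bound. The median over all genes tested was 6.42 and 6.32 without WT replicate 1 or 2, over the genes that then passed the filter, and 0.14 without ∆M replicate 1. DESeq2 called 7 of the 79, 5 lower and 2 higher in the ∆M libraries. It gave no adjusted p to others of the 79, such as *Paics* and *Pfas*. Over the 6519 genes with an adjusted p, DESeq2 called 448 (6.87%) higher and 342 (5.25%) lower. These shares and the 7 of 79 therefore have unlike denominators. Among the genes tested by edgeR, 528 of 7905 (6.68%) were without overlap and higher in the ∆M libraries, and so were 5 of the 43 list genes tested.

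In the list of de novo purine synthesis, the pathway that builds IMP from ribose phosphate, 3 of 7 genes were tested. *Paics* had 9 and 0 counts in the WT libraries and 7, 0 and 8616 in the ∆M libraries. *Gart* had 2602 counts in WT replicate 2 and at most 6 elsewhere. *Atic*, whose product makes IMP in the last step, had 0 and 0 against 11, 149 and 2 counts, and *Pfas* had 0 and 19 against 9, 0 and 104. Each of the 7 genes exceeded 50 counts in exactly 1 library, and none in both libraries of the WT genotype.

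Among the other AMP, IMP and GMP enzymes, *Guk1* and *Ak3* were without overlap and lower in the ∆M libraries. *Guk1*, the guanylate kinase, had 18095 and 1 counts against 0, 0 and 0, and *Ak3* had 3 and 1693 against 0, 0 and 0, so that each was separated by at most 3 counts. *Gmps*, which makes GMP, had 0 and 4864 counts against 21, 15698 and 0, and *Ak6* 0 and 3627 against 5, 30 and 16378. Both overlapped.

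Of purine salvage and breakdown, 9 of 13 genes were tested. *Gda*, guanine deaminase, was detected in all 5, with 2528 and 2986 counts in the WT libraries and 42, 5067 and 178 in the ∆M libraries. *Entpd1* (CD39), which degrades extracellular ATP, was also detected in all 5, with 8 and 2848 counts against 12, 2933 and 3600. *Hprt*, the salvage enzyme for hypoxanthine and guanine, had 0 and 9214 against 0, 21077 and 7293, the same libraries as *Adssl1*. *Xdh*, which oxidizes hypoxanthine to uric acid, had 0 and 0 counts in the WT libraries and 49, 5147 and 7830 in the ∆M libraries. The genotypes of *Xdh* did not overlap, its adjusted p was 1 with edgeR's quasi-likelihood test (unadjusted p = 0.0939) and 0.00251 with DESeq2.

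Among upstream kinases of AMPK, *Stk11* (LKB1) had 2 and 0 counts in the WT libraries and 36, 5827 and 189 in the ∆M libraries, without overlap (log2 fold change 10.24 and adjusted p = 1 with edgeR, adjusted p = 0.0422 with DESeq2). Its partner genes *Cab39* and *Cab39l* (MO25) had 0 and 63 against 23, 0 and 15027, and 8 and 0 against 2, 15803 and 0. LKB1 acts as a complex with such a partner. In ∆M replicate 2, *Stk11* and *Cab39l* were both over 1000 counts, while *Cab39* had 0, and *Strada* and *Stradb* of the same list had 0 and 4.

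Of 19 regulators and substrates of AMPK, *Tbc1d1*, *Tsc2* and *Rptor* were detected in 4 libraries each, and no gene of this list was detected in all 5. *Tbc1d1*, a substrate in glucose uptake, had 5118 and 0 counts in the WT libraries and 33, 10861 and 1408 in the ∆M libraries. *Tsc2* had 11 and 223 against 6, 20821 and 0, and *Rptor*, of the mTORC1 complex that AMPK restrains, had 0 and 243 against 154, 5 and 34. All 3 overlapped. *Tbc1d4*, a relative of *Tbc1d1*, had 0 and 0 against 9, 371 and 1. Among partners of PGC-1, *Gabpa* was detected in all 5 libraries, with 7 and 7 counts against 20, 14 and 10248, and was thereby without overlap. *Nrf1*, a regulator of mitochondrial genes, had 0 and 10388 against 23, 0 and 5, and *Esrra* 42 and 0 against 17, 0 and 74, both overlapping.

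Aspartate enters the purine nucleotide cycle and fumarate leaves it. *Mdh2*, the mitochondrial malate dehydrogenase, had 29613 and 20930 counts in the WT libraries and 13, 27818 and 19371 in the ∆M libraries, high in all but ∆M replicate 1. *Got1*, an aspartate aminotransferase, had 42378 and 0 against 28634, 9 and 1657, and *Mdh1* 0 and 21270 against 0, 21281 and 7346, again in the libraries that held *Adssl1*. How many of all genes share this pattern of *Hprt* and *Mdh1* was not counted. The macrophage gene *Cd68* also had only 0 and 10 counts in replicate 1 of the WT and the ∆M genotype. *Asl*, argininosuccinate lyase, which is a different enzyme from *Adsl* but also releases fumarate, had 15758 and 8842 counts in the WT libraries and 4, 0 and 0 in the ∆M libraries. Like *Adss*, it is among the genes the study drew from these libraries for their difference.

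**Figure D4:**
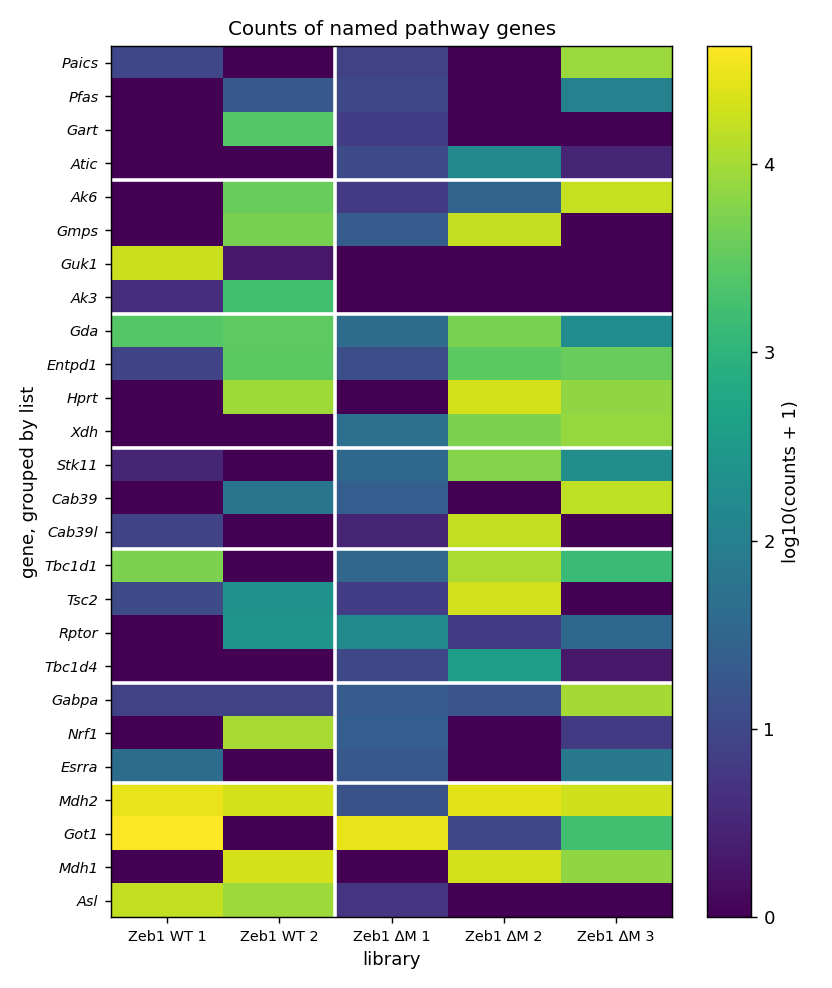
Counts of the named pathway genes in each library, coloured by log10(counts + 1), with white lines between the 7 lists and between genotypes. *Gda*, *Entpd1* and *Gabpa* are above 3 counts in all 5 libraries, as is *Mdh2*, and *Paics*, *Gart* and *Guk1* exceed 1000 counts in 1 library each.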

How the data were processed

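Macrophages were sorted from aortas as viable CD45+ F4/80+ cells per the labels, and also as CD11b+ per the methods, and cDNA was made with a low-input kit. Paired-end reads had been aligned by STAR 2.5.3a on GRCm38 and assigned to genes by RSEM 1.3.0, and the authors deposited whole-number counts per gene, without normalization or a filter. Sample titles gave the genotype of each library.

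These counts went into edgeR 4.0.16 (R 4.3.3) (filterByExpr with a minimum count of 10, TMM, quasi-likelihood test of 3 ∆M against 2 WT libraries, Benjamini-Hochberg adjustment over 7905 genes, threshold 0.05). Log2 CPM used a prior count of 2. Alternatives were DESeq2 1.42.0 with default options, the study's tool, limma-voom (limma 3.58.1), other scalings and filters, the replicate block and each library left out in turn. Standard errors came from the fitted weights, and none was available where a genotype was at 0.

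The members and lists were chosen with earlier results of these data known. Genes named were all members, the 3 nearest in log2 CPM to *Adss* and *Prkaa1*, genes that overlap members (given here where they share exon bases and were counted), the up to 3 genes of each list detected in most libraries, and list genes without overlap, of which some are not reported here. *Ampd1*, *Impdh1*, *Impdh2-ps*, the remaining AMPK subunits, *Ppargc1b*, *Pprc1*, *Prps1*, *Strada*, *Stradb*, *Ms4a1*, *Vwf*, *Dcn* and *Ckm* were chosen after their values were seen. Coordinates and exon lengths are from GENCODE M21 (GRCm38), which held all 10 member identifiers with their version. Promoter windows are from RefSeq (GRCm38.p6). Figures used Python 3.11.15 and matplotlib 3.10.9.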

Additional observations from a re-analysis of the deposited data

How the results depend on the processing

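The count of genes called by edgeR's quasi-likelihood test was 0 with RLE, upper-quartile or total-count scaling, without a filter, with at least 10 counts in every library, at a threshold of 0.1 and with any 1 library left out (range 0 to 0 over all genes, the members and the pathway lists). DESeq2 called 790 genes, 2 members (*Adss* and *Impdh2*) and 7 list genes, and limma-voom with sample quality weights called 234 genes, 1 member (*Adss*) and 3 list genes. The cause of this difference was not tested. Replicates 1 and 2 occur in both genotypes, but nothing in the labels ties equal numbers together, and their differences correlated at 0.18 across genes. With the replicate block, 0 genes were called and the log2 fold change of *Adss* was -15.42. For *Adss*, with 0 counts in every ∆M library, the log2 fold change could only be negative, so its sign is no sign of stability. Its size ranged from -20.50 to -13.77 over the alternatives that tested it. For *Adssl1* it turned positive with DESeq2 (0.093), limma-voom (4.94), RLE (0.12), upper-quartile scaling (0.43), no filter (0.41), and ranged from -1.51 to 13.59 with 1 library left out. The median over all genes moved with scaling, from 0.78 to 1.24 (RLE), 0.29 (upper quartile) and 0.13 (total counts), was 3.56 with DESeq2 and -0.30 with limma-voom, and ranged from 0.14 to 6.42 with 1 library left out, against which the fold changes above should be read. No member lay at 10 counts or more, or over 50, in ∆M replicate 1 (0 members), and 6 had at least 1 count there, against 7 in ∆M replicate 3. Of the 79 list genes, 73 were detected in some library and 60 without ∆M replicate 1, an alternative added once the data had been seen. The share of promoters with CACCTG was 20.2% with the 50 bases after the start included. None of the 9 members tested reached the smallest exact permutation p with total-count or RLE scaling (0 genes). The test with at least 10 counts in every library left no member. Leaving out a WT library assumes that the remaining one varies like the ∆M libraries.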

Other observations

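DESeq2 gave small adjusted p-values to some, but not all, pathway genes counted almost only in a single *Zeb1* WT/*Apoe* KO library. *Guk1*, with 18095 counts in WT replicate 1 and at most 1 elsewhere, had an adjusted p of 3.75e-09. *Prps1*, which makes the ribose phosphate donor of purine synthesis, had 12285 counts in WT replicate 2 and 0 elsewhere (adjusted p = 1.15e-08), and *Ampd1* had 1875 counts in that library and 0 elsewhere (adjusted p = 7.96e-08). *Adss*, counted in both WT libraries, had a larger adjusted p of 0.00114. None of these 4 genes passed with edgeR's quasi-likelihood test, whose filter *Guk1*, *Prps1* and *Ampd1* did not pass. By contrast, *Gart* and *Ak3*, with 2602 and 1693 counts in WT replicate 2 and at most 6 elsewhere, had adjusted p of 0.329 and 0.0637 with DESeq2.

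The RefSeq gene table lists *Adss* as a synonym of *Adssl1* and *Adss2* as a synonym of *Adss*, so that *Adss* can stand for either isozyme. It also lists *Asl* as a synonym of *Adsl*. Identifiers kept these genes apart here.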
